A study of Homo sapiens with 11 samples.

Results

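The 9 genes ADAR, ADARB1, EIF2AK2, PRKRA, ILF2, DHX9, DICER1, DROSHA and TARBP2 encode proteins that bind, edit, unwind or cut double-stranded RNA, or that work in complex with proteins that do. They were taken by symbol from the 58699 genes of the total RNA table, and all 9 symbols matched 1 gene each. The cells were HCT116, a line established from a human colorectal carcinoma. They received a small interfering RNA (siRNA) that targets luciferase and serves as control (siLuc) or one that targets Staufen1 (siStau1), a protein that itself binds double-stranded RNA, together with the solvent DMSO or decitabine. Decitabine (DAC) is a cytidine analogue that is built into DNA and traps DNA methyltransferases, and the labels give 500 nM for 5 days. Each siRNA was combined with each of DMSO and DAC, which gives 4 groups of 2 total RNA libraries, named below by siRNA and drug (siLuc DMSO and so on). All groups share the cell line and transfection with an siRNA, and untransfected cells were not analysed here.

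Double-stranded RNA arises in human cells mainly from transcripts that fold back on inverted repeats, such as paired Alu elements, and from transcripts read from both strands of a locus. Adenosine deaminases (ADAR and ADARB1) convert adenosine to inosine in such duplexes and so loosen them, while the kinase encoded by EIF2AK2 (PKR) is activated on long duplexes and halts translation by phosphorylating the initiation factor eIF2. DROSHA and DICER1 cut shorter hairpins into microRNAs, with TARBP2 and PRKRA as partners of DICER1. ILF2 and DHX9 are abundant nuclear proteins that act on structured RNA.

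The table deposited by the authors gives 1 FPKM value (fragments per kilobase of transcript, scaled to the mapped fragments of the library) for each gene and group, so no spread between the 2 libraries of a group can be given and the sequencing depth is unknown. Differences are therefore given with the p-value and q-value of the authors' deposited table, and a gene is said to be called, to rise or to fall only where that q-value is under 0.05. Log2 ratios were computed from FPKM with 0.1 added to each value, so that changes of very low genes are understated. The labels do not say whether the 2 libraries of a group came from separate cultures, so these p-values may measure technical spread only. In bulk RNA, fewer cells with a transcript and less of it per cell cannot be told apart. The 3 highest genes held 31.1% of summed FPKM in siLuc DMSO and 26.6% in siStau1 DMSO, but 41.7% in siLuc DAC and 41.1% in siStau1 DAC. Summed FPKM was also higher with DAC in both arms. The make-up of the RNA thus moved with the drug, and its part in the ratios was not tested. Of the epithelial markers, EPCAM had 259 FPKM with DMSO and 116.9 with DAC in siLuc cells, and 338 and 179 in siStau1 cells, while KRT18 had 681 and 3469, and 509 and 2415. KRT8, KRT19 and CDH1 also had higher values with DAC than with DMSO in both arms. The colorectal markers VIL1 and GPA33 stayed under 0.2 FPKM, CDX2 lay between 2.76 and 7.47 FPKM, and LGALS4 was under 0.1 FPKM with DMSO and at 1.495 and 1.40 with DAC. The leukocyte marker PTPRC and the endothelial marker PECAM1 did not pass 0.820 FPKM, with 0 or nearly 0 in DMSO and their higher values in DAC. The fibroblast marker COL1A1 had 1.59 FPKM with DMSO and 8.60 with DAC in siLuc cells, and 0.826 and 5.65 in siStau1 cells. Markers thus moved with the drug that the comparisons concern, and their part in the results was not tested. STAU1, the gene targeted by the siRNA, had 35.5 FPKM with DMSO and 33.7 with DAC in siLuc cells, and 29.98 and 27.1 in siStau1 cells. The siStau1 values were 1.18-fold and 1.24-fold below the siLuc values with DMSO and with DAC, and neither difference was called (q-values 0.767 and 0.685 in the authors' deposited table).

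DHX9 and TARBP2 were the members called in the table, and the 250 bases before their transcription starts are shown because decitabine acts on cytosine methylation, which in human DNA sits mostly at CpG. Sequences are from RefSeq (GRCh38.p14), written 5′ to 3′ on the strand of the gene, with CpG dinucleotides in capitals. The DHX9 window is chr1:182839097-182839346 on the plus strand, with 28 CpG, and the TARBP2 window, for the first of its 3 listed starts, is chr12:53500673-53500922 on the plus strand, with 15 CpG.
DHX9: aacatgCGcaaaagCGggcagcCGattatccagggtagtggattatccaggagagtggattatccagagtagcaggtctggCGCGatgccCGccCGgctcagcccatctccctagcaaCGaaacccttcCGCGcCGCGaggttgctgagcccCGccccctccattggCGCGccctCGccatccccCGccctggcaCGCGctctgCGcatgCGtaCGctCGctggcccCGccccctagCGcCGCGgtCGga
TARBP2: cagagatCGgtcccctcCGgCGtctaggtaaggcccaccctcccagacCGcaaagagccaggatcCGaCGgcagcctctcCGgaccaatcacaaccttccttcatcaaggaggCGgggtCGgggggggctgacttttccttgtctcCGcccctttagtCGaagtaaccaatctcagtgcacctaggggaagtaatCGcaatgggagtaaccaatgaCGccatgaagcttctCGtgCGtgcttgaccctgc

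All 9 genes matched the RefSeq promoter table, with 22 starts in all. At the first listed start of each gene the window held from 12 CpG, in ADAR and ILF2, to 45 CpG, in ADARB1, and all 9 were above the median of 11 over the 35116 promoters of the table. The other 2 starts of TARBP2 had 22 and 23 CpG in their windows. Some later starts of other genes were at or under the median of 11. Start 3 of ADAR had 9 CpG, and starts 2 to 5 of DICER1 had 6, 11, 1 and 0. The core of the interferon-stimulated response element, searched as GAAA, NN and GAAA in 1 run on both strands, was found in 0 of the 22 windows and in 3.02% of all promoters of the same length. Among the 15 interferon-stimulated genes of a list used below that matched the table, 12 held it in at least 1 window. Each window stops at the listed start, so a match that crosses or follows the start is not seen. The EIF2AK2 window ends in GAAAAC, which matches the beginning of the searched string. The count of 0 therefore does not show that the 9 genes lack the element. A match is a string of letters and not a measured binding site, and methylation was not analysed here.

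**Figure D1:**
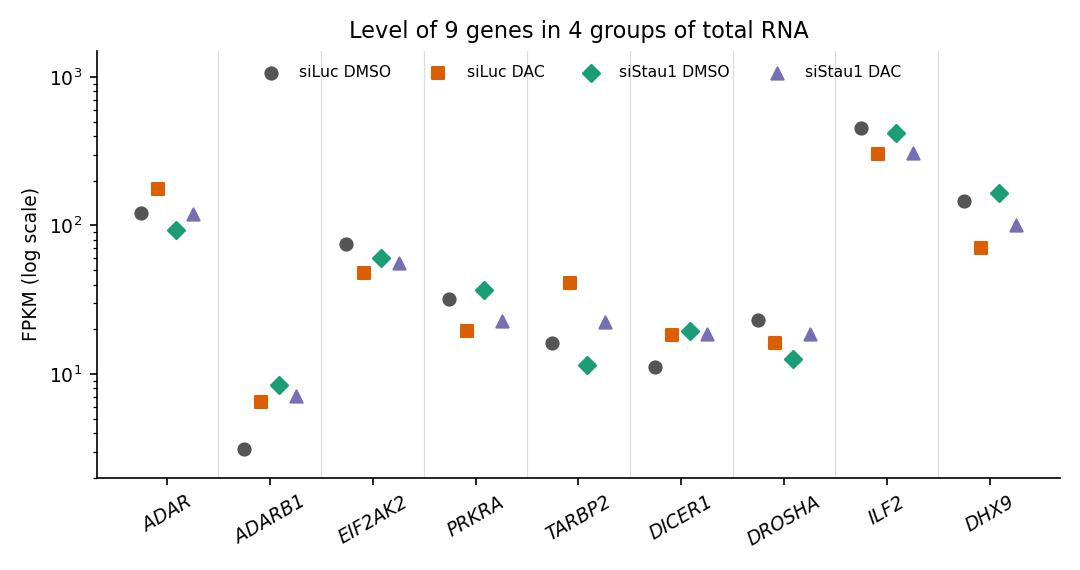
FPKM of the 9 genes on a log scale, with 1 point for each of the 4 total RNA groups and no error bars because the table has no value per library. ILF2 is the highest and ADARB1 the lowest in every group, and the points of TARBP2 are the most spread, from 11.6 to 41.0 FPKM.

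The editing enzymes were expressed at very different levels. ADAR (ENSG00000160710.16, chromosome 1, 154582057 to 154628013, minus strand), which edits most sites in Alu duplexes, had 121 FPKM with DMSO and 176 with DAC in siLuc cells, and 93.6 and 120.3 in siStau1 cells. It was highest in siLuc DAC and lowest in siStau1 DMSO, 1.88-fold apart. The log2 ratio of DAC over DMSO was 0.54 in siLuc and 0.36 in siStau1, and that of siStau1 over siLuc was −0.37 under DMSO and −0.55 under DAC. None of these 4 ratios was called, and their q-values in the authors' deposited table lay between 0.487 and 0.767. ADAR is transcribed from an interferon-inducible promoter, which gives the long cytoplasmic p150 protein, and from constitutive promoters that give the nuclear p110. GENCODE release 29 lists 23 transcripts of the gene, and the single FPKM value sums them, so the forms cannot be told apart here.

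ADARB1 (ENSG00000197381.15, chromosome 21, 45073853 to 45226560, plus strand) encodes ADAR2, known for recoding sites in neuronal receptor transcripts. Its level was 3.14 FPKM with DMSO and 6.44 with DAC in siLuc cells, and 8.46 and 7.09 in siStau1 cells, so siLuc DMSO was below the other 3 groups. The log2 ratio of siStau1 over siLuc in DMSO was 1.40, higher than that of 95.2% of tested genes, but at a q-value of 0.481 by the authors' deposited table it was not called. The FPKM of ADAR was 38.5 times that of ADARB1 in siLuc DMSO, 11.1 times in siStau1 DMSO, and 27.3 and 16.96 times in the siLuc and siStau1 cells given DAC.

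The kinase gene EIF2AK2 (ENSG00000055332.17, chromosome 2, 37099210 to 37157065, minus strand) had 75.3 FPKM with DMSO and 48.0 with DAC in siLuc cells, and 60.2 and 56.3 in siStau1 cells. The level in siLuc DMSO was the highest and that in siLuc DAC the lowest. DAC over DMSO gave −0.65 on the log2 scale in siLuc and −0.10 in siStau1. The authors' deposited table gave q-values of 0.394 and 0.940, so neither was called. PRKRA (ENSG00000180228.12, chromosome 2, 178431414 to 178451512, minus strand) encodes PACT, which activates PKR under stress and also binds DICER1. It had 32.1 FPKM with DMSO and 19.4 with DAC in siLuc cells, and 36.9 and 22.7 in siStau1 cells, so both DAC groups were below both DMSO groups. The log2 ratio of DAC over DMSO was −0.72 in siLuc and −0.70 in siStau1. In the authors' deposited table the q-values were 0.293 and 0.326, so neither was called. The antisense gene AC009948.1 overlaps PRKRA by 8830 bases and had 7.94 to 11.4 FPKM, and whether the counting used strand is not given in the sources used here.

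TARBP2 (ENSG00000139546.10, chromosome 12, 53500921 to 53506431, plus strand) encodes TRBP, the double-stranded RNA binding partner that stabilises DICER1 and also inhibits PKR. It rose with DAC in siLuc cells. Its level was 16.1 FPKM with DMSO and 41.0 with DAC in siLuc cells, and 11.6 and 22.4 in siStau1 cells, so both DAC groups stood above both DMSO groups. DAC over DMSO gave a log2 ratio of 1.34 in siLuc, a 2.53-fold rise, with a p-value of 0.00065 and a q-value of 0.0134, both from the authors' deposited table. In siStau1 the ratio was 0.95, and the p-value of 0.0507 and q-value (0.281) of the authors' deposited table gave no call. With DAC, siStau1 over siLuc was −0.87, with an unadjusted p-value of 0.0243 and a q-value of 0.177, both from the authors' deposited table, and was not called.

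TARBP2 and PRKRA are related proteins that can each occupy DICER1, and with DAC the log2 ratio was above 0 for TARBP2 and below 0 for PRKRA in both arms, although centring on genes of like GC content gave 0.019 in siLuc and −0.08 in siStau1 for PRKRA, and 0.41 and 0.28 for TARBP2. The FPKM ratio of TARBP2 to PRKRA was 0.502 in siLuc DMSO and 2.11 in siLuc DAC. In siStau1 it was 0.313 with DMSO and 0.986 with DAC. The lower of the pair was thus TARBP2 in 3 groups and PRKRA in siLuc DAC. This ratio has no test, since it would need values per library, and the transcripts differ in GC content, which is described below.

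DICER1 (ENSG00000100697.14, chromosome 14, 95086228 to 95158010, minus strand), the enzyme that cuts precursor hairpins in the cytoplasm, had 11.1 FPKM with DMSO and 18.3 with DAC in siLuc cells, and 19.5 and 18.7 in siStau1 cells. The siLuc DMSO value was the lowest and the other 3 lay between 18.3 and 19.5 FPKM. The log2 ratio of DAC over DMSO was 0.71 in siLuc, with an unadjusted p-value of 0.0523 and a q-value of 0.287, both from the authors' deposited table. DROSHA (ENSG00000113360.16, chromosome 5, 31400497 to 31532196, minus strand), the nuclear enzyme that cuts primary microRNA transcripts, had 23.1 FPKM with DMSO and 16.2 with DAC in siLuc cells, and 12.6 and 18.5 in siStau1 cells. Here siLuc DMSO was the highest of the 4 groups, the reverse of DICER1. None of the DROSHA ratios was called, and its q-values in the authors' deposited table lay between 0.560 and 0.893. The FPKM ratio of DICER1 to DROSHA was 0.483 with DMSO and 1.13 with DAC in siLuc cells, and 1.55 and 1.01 in siStau1 cells. DROSHA works with the double-stranded RNA binding protein DGCR8, and the ratio of DROSHA to DGCR8 was 1.77, 0.990, 1.40 and 1.499 in the same order.

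**Figure D2:**
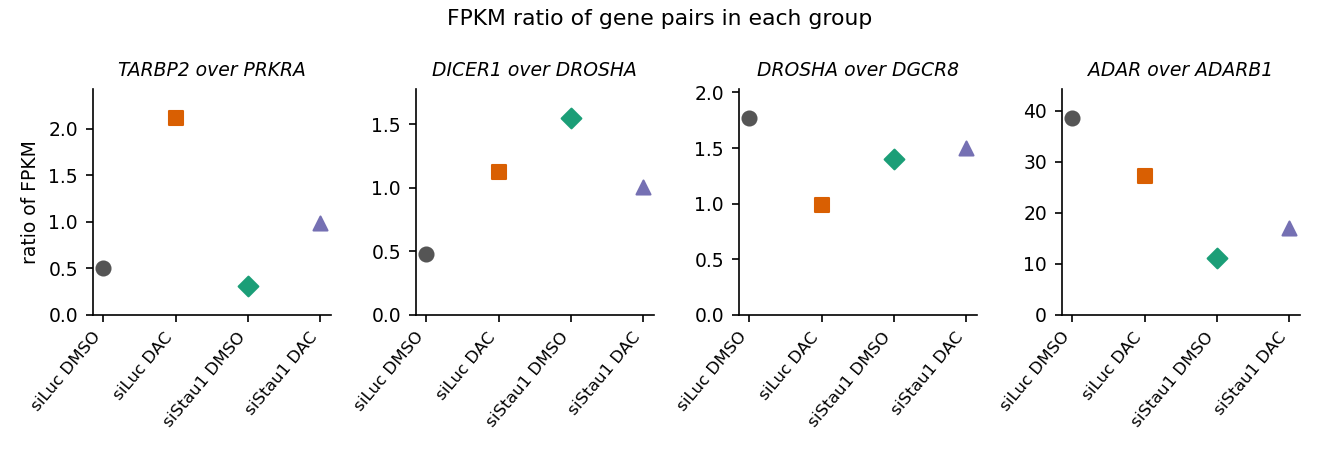
Ratio of the FPKM values of 4 gene pairs in each group, on linear axes that start at 0 and differ between panels, with 1 point per group. The ratio of TARBP2 to PRKRA is 2.11 in siLuc DAC and under 1 in the other 3 groups, and that of DICER1 to DROSHA is 0.483 in siLuc DMSO and above 1 in the others. That of ADAR to ADARB1 is highest, at 38.5, in siLuc DMSO.

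ILF2 (ENSG00000143621.16, chromosome 1, 153661788 to 153671048, minus strand) encodes NF45, which has no double-stranded RNA binding domain of its own and works in complex with proteins that do. It was the highest of the 9 genes, at 450.1 FPKM with DMSO and 302 with DAC in siLuc cells, and 419.9 and 307 in siStau1 cells. Both DAC groups were below both DMSO groups. For ILF2 the log2 ratio of DAC over DMSO was −0.57 in siLuc and −0.45 in siStau1, with q-values of 0.373 and 0.508 in the authors' deposited table. ILF2 stood at rank 207 among protein-coding genes in siLuc DMSO and at rank 277 in siLuc DAC.

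DHX9 (ENSG00000135829.16, chromosome 1, 182839369 to 182887751, plus strand) encodes RNA helicase A, which unwinds RNA duplexes, those of Alu repeats among them. It fell with DAC in siLuc cells. Its level was 145 FPKM with DMSO and 70.4 with DAC in siLuc cells, and 165 and 101 in siStau1 cells. Both DAC groups were below both DMSO groups. DAC over DMSO gave a log2 ratio of −1.04 in siLuc, with a p-value of 0.00065 and a q-value of 0.0134, both from the authors' deposited table. In siStau1 it was −0.70, and the unadjusted p-value of 0.0195 and q-value (0.153) of the authors' deposited table gave no call. The processed pseudogene DHX9P1 had 0.0849 to 0.864 FPKM.

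By level, the order in siLuc DMSO was ILF2, DHX9, ADAR, EIF2AK2, PRKRA, DROSHA, TARBP2, DICER1 and ADARB1. The first of these and ADARB1 kept the highest and lowest place in all 4 groups, while ADAR was above DHX9 in both DAC groups and below it in both DMSO groups. TARBP2 was above PRKRA in siLuc DAC and below it in the other 3 groups. Whether neighbours in this order differ beyond their spread cannot be judged from 1 value per group. The ratio of the highest to the lowest group was 3.55 for TARBP2, 2.69 for ADARB1 and 2.35 for DHX9, and between 1.49 and 1.90 for the other 6 genes.

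All 9 genes were tested in each comparison of the authors' deposited table. With DAC in siLuc cells, 2 of the 9 were called, TARBP2 higher and DHX9 lower, beside 13.5% of all 17504 tested genes. A share of 2 in 9 rests on a pair of genes and is not set apart from that background. Their median log2 ratio was −0.50, and 4 had a ratio above 0, while the median of all tested genes was 0.23. Over genes that reached 1 FPKM in both groups compared, as the 9 did, the median was 0.08. After centring on genes of like GC content, described below, the median of the 9 was 0.02. An absolute log2 ratio of at least 1 was reached by 3 of the 9, ADARB1, DHX9 and TARBP2, and by 44.8% of tested genes. Unlike the 9, the tested genes include some under 1 FPKM. For DAC in siStau1, Cuffdiff called 0 of the 9 beside 7.46% of tested genes, and 1 of the 9, DHX9, had an unadjusted p-value under 0.05, as did 19.0% of all genes.

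The knockdown comparisons gave no call among the 9 genes. Without DAC, Cuffdiff called 0 of 9 beside 0.799% of tested genes, and 0 of 9 had an unadjusted p-value under 0.05, against 4.30% of all genes. Their smallest q-value in the authors' deposited table was 0.417, for DICER1. Under DAC it called 0 of 9 beside 0.904%, and TARBP2 alone had an unadjusted p-value under 0.05, against 6.95% of all genes. Across the 9 genes the median ratio (log2) was −0.10 without DAC and 0.14 with DAC, and −0.20 and −0.16 after centring on GC content. Over all genes that reached 1 FPKM in both groups compared it was −0.02 and −0.11, so the second comparison carries a general shift. The ratio of TARBP2 there was −0.76 relative to that shift and −0.34 relative to genes of like GC content, whose median was −0.53. Spearman's rho between ratio and GC content over protein-coding genes was −0.715 in this comparison and −0.487 without DAC, as a description across genes. The remaining comparisons of the deposited table differ in both siRNA and drug. For siStau1 DAC against siLuc DMSO, Cuffdiff called 0 of 9 beside 4.98% of tested genes, with 1 of 9 at an unadjusted p-value under 0.05. For siLuc DAC against siStau1 DMSO it called TARBP2 and DHX9 beside 16.7%. The latter shares the siLuc DAC libraries with the comparison of DAC in siLuc and is no separate evidence: the log2 ratios were 1.82 for TARBP2 and −1.23 for DHX9, with q-values of 0.00732 and 0.00525 in the authors' deposited table.

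**Figure D3:**
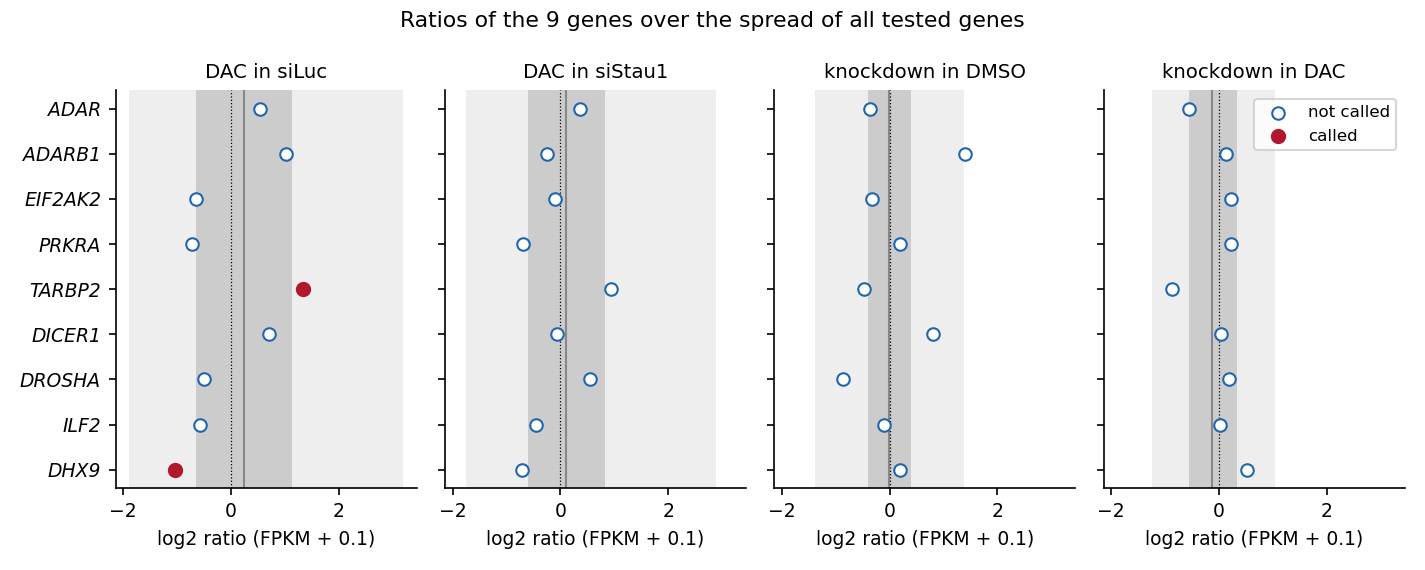
Log2 ratio of (FPKM + 0.1) for the 9 genes in 4 comparisons, with called genes filled and the others open. The light band holds the middle 90% of all tested genes, the dark band the middle 50%, and the grey line their median. TARBP2 at 1.34 and DHX9 at −1.04 in the first panel are the filled points, and both lie inside the light band.

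Ratios in these data moved with the GC content of transcripts, in which the 9 genes differ widely. Across 10953 protein-coding genes that reached 1 FPKM in both groups compared, Spearman's rho between the ratio of DAC in siLuc and the GC content of the longest transcript was 0.659. These genes share their libraries and are not replicates. The longest transcript had 60.8% GC in TARBP2, the highest of the 9, and 43.9% in DHX9. Among the 547 genes in the GC bin of TARBP2 the median log2 ratio was 0.93, with quartiles of 0.52 and 1.37, and 22.1% of them were called higher. The ratio of TARBP2, 1.34, thus lay between these quartiles, 0.41 above the median and above 73.9% of the bin. Among the 548 genes in the bin of DHX9 the median was −0.44, with quartiles of −0.91 and 0.11, and 11.1% were called lower. DHX9 at −1.04 lay below the lower quartile, at −0.61 relative to the median. For DAC in siStau1 rho was 0.624, and DHX9 went from −0.70 to −0.39 with centring. The part of GC content in the calls was not tested.

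With DAC in siLuc, DICER1 stood farther from genes of like GC content than either called gene. It was itself not called (q-value 0.287 in the authors' deposited table). Its longest transcript had 39.2% GC, in a bin with a median log2 ratio of −0.63 and an upper quartile of −0.08. The DICER1 ratio of 0.71 was above that of 95.6% of the 547 genes in the bin, and 1.34 above their median. EIF2AK2, in the same bin at 38.7% GC, had a centred ratio of −0.02, and PRKRA, at 37.6% GC, one of 0.02. Both genes thus lay at the median of genes of like GC content. ADAR and ADARB1 lay 0.54 and 0.58 above the medians of their bins. With DAC in siStau1 the DICER1 ratio was −0.06, or 0.45 after centring, and was not called either. The siLuc DMSO value of DICER1, 11.1 FPKM, was its lowest of the 4 groups.

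**Figure D4:**
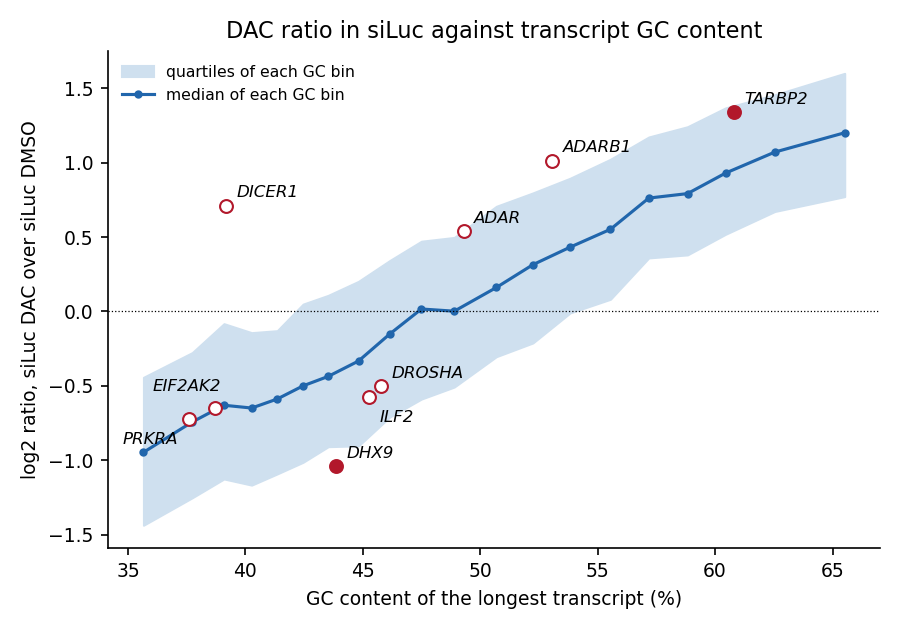
Log2 ratio of siLuc DAC over siLuc DMSO against the GC content of the longest transcript, with the median and quartiles of 20 GC bins of protein-coding genes in blue and the 9 genes in red (filled where called). TARBP2 lies on the upper part of the band, DHX9 just under it, and DICER1 at 39.2% GC well above it.

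The response to DAC was set side by side in the siRNA arms, which share no libraries. The sign of the log2 ratio was the same in 6 of the 9 genes (ADAR, EIF2AK2, PRKRA, ILF2, DHX9 and TARBP2). In 8 of the 9 the size was smaller in siStau1, DROSHA being the exception, while over the 15956 genes tested in both arms it was smaller in 62.2%. The difference of the ratios, siStau1 minus siLuc, was −1.26 for ADARB1, −0.77 for DICER1 and 1.05 for DROSHA. In siLuc DMSO, ADARB1 and DICER1 had their lowest value of the 4 groups and DROSHA its highest, and that group also enters the knockdown comparison in DMSO, which shares its libraries with DAC in siLuc. The other differences lay between −0.39, for TARBP2, and 0.55, for EIF2AK2, and the quartiles over all tested genes were −0.44 and 0.37. These differences were described and not tested.

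ADAR and EIF2AK2 are both known as interferon-stimulated genes, so they were set beside a list of 20 such genes that holds neither. With DAC in siLuc, 8 of the 20 were called, all higher, with a median log2 ratio of 0.68, and MX1, an antiviral GTPase, rose from 3.74 to 266 FPKM. ADAR had 0.54 and EIF2AK2 −0.65 in that comparison. After centring on GC content they had 0.54 and −0.02, beside a median of 0.84 for the list. Of the 20, 16 had a ratio above 0, so ratios below 0 also occurred in the list. IFIT1, named after its values were seen, had 207 FPKM in siLuc DMSO and 83.6 in siLuc DAC. It was not called there (q-value 0.119 in the authors' deposited table). With DAC in siStau1, 13 of the 20 were called, all higher, with a median of 2.18, where ADAR had 0.36 and EIF2AK2 −0.10. After centring on GC content ADAR had 0.30 and EIF2AK2 0.42 there, beside a median of 1.92 for the list. With knockdown in DMSO, 11 of the 20 were called, all lower, and the ratios ran from −4.43 to −0.55 with a median of −1.88. The siStau1 DMSO libraries enter both this comparison and DAC in siStau1, so their counts are not separate evidence. The ratio was above 0 in 20 of the 20 with DAC in siStau1 and in 0 of the 20 with knockdown in DMSO. Without centring on GC content, ADAR at −0.37 and EIF2AK2 at −0.32 were nearer to 0 than any of the 20. After that centring, ADAR was at −0.28 and EIF2AK2 at −0.68. The median of the listed genes was then −1.87, over those that reached 1 FPKM in both groups. IFITM1, which blocks viral entry, fell there from 191 to 8.798 FPKM. With knockdown in DAC, 7 were called, all lower, with a median of −0.77, and 4 of the 20 had a ratio above 0. In that comparison ADAR had −0.55 and EIF2AK2 0.23. With centring on GC content they had −0.46 and −0.16, beside a median of −0.60 for the list. Neither ADAR nor EIF2AK2 was called in any of the 6 comparisons of the authors' deposited table. Over all tested genes the medians in the same order were 0.23, 0.11, −0.02 and −0.14, with 8.71% and 4.56% called higher with DAC and 0.466% and 0.469% called lower with knockdown, and the difference between the 2 genes and the list was not tested.

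**Figure D5:**
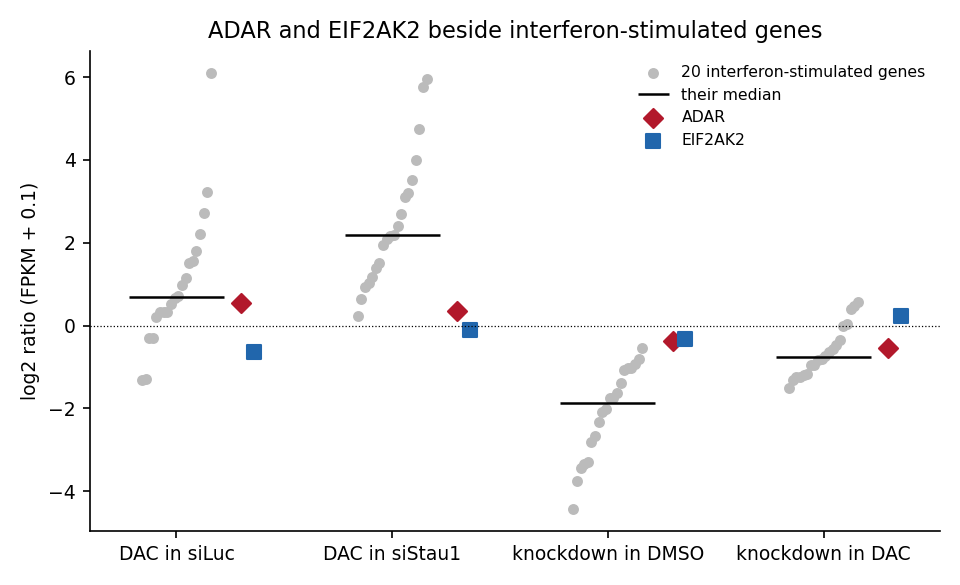
Log2 ratio of (FPKM + 0.1) in 4 comparisons for the 20 listed interferon-stimulated genes (grey, spread sideways in rank order, with their median as a line), ADAR (red diamonds) and EIF2AK2 (blue squares). With knockdown in DMSO the 20 genes run from −4.43 to −0.55, while ADAR lies at −0.37 and EIF2AK2 at −0.32.

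Other genes with a double-stranded RNA binding domain were taken from a list of 13, of which 12 were tested for DAC in siLuc. There 2 were called higher and 3 lower, beside 8.71% and 4.78% of all tested genes, and the median log2 ratio was −0.05 beside 0.23. The 2 that rose were ADAD1 and ADAD2, germ cell relatives of the deaminases, which were listed at 0 in siLuc DMSO and had 1.62 and 1.66 FPKM in siLuc DAC. Those that fell were STAU2, the paralog of STAU1, from 27.9 to 7.33 FPKM, STRBP, a spermatid RNA binding protein, from 15.5 to 6.28 FPKM, and ZFR, a zinc finger RNA binding protein, from 39.6 to 18.9 FPKM. Their log2 ratios were −1.92, −1.29 and −1.06, and −0.97, −0.66 and −0.56 relative to genes of like GC content, whose medians were −0.95, −0.63 and −0.50. ZFR lies outside the rule for named genes and was named after its values were seen. With DAC in siStau1, ADAD1 and ADAD2 were called higher and none lower, beside 4.56% and 2.89% of all tested genes. They had 1.59 and 0.594 FPKM in siStau1 DAC and were listed at 0 in siStau1 DMSO. The calls of ADAD1 and ADAD2 in both arms are thus low levels set against a value of 0. Cuffdiff called 0 of the 10 tested with knockdown in DMSO and 0 of the 12 tested in DAC, with 0 and 2 at an unadjusted p-value under 0.05. Over all tested genes it called 0.799% and 0.904%, and 4.30% and 6.95% had an unadjusted p-value under 0.05.

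Of 18 partners in the microRNA pathway, 1 was called for DAC in siLuc and none in the other 3 comparisons. Over all tested genes 13.5% were called for DAC in siLuc and 7.46% for DAC in siStau1. For knockdown the shares were 0.799% in DMSO and 0.904% in DAC. HSP90AA1, a chaperone that helps load small RNAs into Argonaute proteins, fell from 657 to 233 FPKM (q-value 0.00825 in the authors' deposited table), a log2 ratio of −1.49, or −1.16 after centring on GC content. The median ratio of the 18 was 0.17, beside 0.23 for all tested genes. DGCR8, which stands in this list and in the last, was not called. By Cuffdiff, genes at an unadjusted p-value under 0.05 numbered 3 of 18 for DAC in siLuc and 1 of 18 for DAC in siStau1. For knockdown they numbered 0 of 17 tested in DMSO and 1 of 18 in DAC. Over all tested genes the shares were 28.9%, 19.0%, 4.30% and 6.95% in the same order.

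Around PKR, 16 genes of eIF2, its exchange factor, its other kinases and further regulators and targets were examined, with median log2 ratios of −0.10 and 0.05 for DAC in siLuc and siStau1 and of −0.24 and 0.14 for knockdown in DMSO and DAC. Of the 16, 2 were called for DAC in siLuc, beside 13.5% of tested genes, and 1 for DAC in siStau1, beside 7.46%. With knockdown 1 was called in DMSO and 1 in DAC, beside 0.799% and 0.904%. PPP1R15A, the regulatory subunit that directs a phosphatase to eIF2, was called in all 4 comparisons. It had 34.6 FPKM with DMSO and 121 with DAC in siLuc cells, and 14.8 and 58.6 in siStau1 cells. Both DAC groups were above both DMSO groups, and each siStau1 group was below its siLuc counterpart. Its log2 ratios were 1.81 and 1.98 for DAC in siLuc and siStau1, and −1.22 and −1.05 for knockdown in DMSO and DAC, with q-values in the authors' deposited table of 0.00162, 0.00162, 0.0201 and 0.0109. After centring on GC content the 4 ratios of PPP1R15A were 1.01, 1.35, −0.94 and −0.58. EIF2S3, the gamma subunit of eIF2, fell with DAC in siLuc from 195 to 89.1 FPKM (q-value 0.00525 in the authors' deposited table), with a log2 ratio of −1.13, or −0.63 after that centring. The other 14 genes, the PKR relatives EIF2AK1, EIF2AK3 and EIF2AK4 and the target ATF4 among them, were not called in any of the 4 comparisons.

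The genes whose levels over the 4 groups were most like those of ADAR and EIF2AK2 were found by the Euclidean distance between log2 profiles, each centred on its own mean, among 11934 other genes with at least 1 FPKM in all groups. For ADAR they were DNPH1, at a distance of 0.020, POLE, at 0.037, and CYC1, at 0.057. DNPH1 had 33.6 FPKM with DMSO and 48.3 with DAC in siLuc cells, and 25.5 and 33.3 in siStau1 cells. For EIF2AK2 they were SNRPC, at 0.036, FAM220A and COMMD10, both at 0.041. With 4 values per gene such likeness is a description only. Among the 9 genes themselves the nearest pair was EIF2AK2 and ILF2, at 0.257, and the farthest DHX9 and TARBP2, at 2.30.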

How the data were processed

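Total RNA of 8 libraries, 2 in each of 4 groups, was summarised by the authors as 1 FPKM value per gene and group in a table of Cuffdiff layout, per the file headers. The submitters' processing notes name hg38, HISAT2 2.1.0 and Cuffdiff 2.2.1, and the roles and settings of these tools are not given in the sources used here. The p-values and q-values are those of the authors' deposited table; Benjamini-Hochberg adjustment of all 102180 p-values of the 6 comparisons as 1 family gave the same q-values to within 5.3e-07. Ratios computed here (Python 3.11.15, pandas 2.3.3) are log2 of FPKM with a pseudocount of 0.1, DAC over DMSO and siStau1 over siLuc. All 58699 identifiers are in GENCODE release 29 (GRCh38), which gave positions, transcript lengths and GC content. Centring used 20 bins of GC content over protein-coding genes that reached 1 FPKM in both groups compared. This step and the adjustment were tested on simulated data. Tests per library, planned in case such values were present, could not be made. The 9 genes and all lists were chosen with earlier results of these data known. Named genes were the 9 members, STAU1, up to 4 called genes per list and comparison, and the 3 nearest profiles of ADAR and EIF2AK2. The 3 libraries titled J2 (crosslinking and immunoprecipitation) are counted by repeat element without genes and were not used here. A gene of the list of double-stranded RNA binding domains is not reported here and was left out of its counts.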

Additional observations from a re-analysis of the deposited data

How the results depend on the processing

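The 2 calls for DAC in siLuc held at a q-value limit of 0.1, when adjusted within that comparison only (q-value 0.00734 for both), and with genes under 1 FPKM left out, but at a limit of 0.01 the count was 0. The counts of 0 in the other 3 main comparisons were 0 under each of these settings. Of 36 log2 ratios of members, 36 kept their sign with a pseudocount of 0.01 or 1 and after centring on the median of all genes. After centring within GC bins 28 kept it and 8 changed it, none of them called. These became 0.019 for PRKRA with DAC in siLuc, 0.42 for EIF2AK2 and 0.45 for DICER1 with DAC in siStau1, −0.20 for PRKRA with knockdown in DMSO, and −0.16 for EIF2AK2, −0.26 for PRKRA, −0.067 for ILF2 and −0.36 for DICER1 with knockdown in DAC. The median difference of the DAC ratio between the arms, 0.03, became −0.10, and the differences of PRKRA and ILF2, 0.03 and 0.12, became −0.10 and −0.10; these changes follow from the subtraction of each bin's median. No paired analysis was possible because the table holds 1 value per group, and leaving out single libraries was not run for the same reason. The depth is unknown, so the precision of the lowest member, ADARB1, cannot be given.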

Other observations

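LIN28B, an RNA binding protein that blocks maturation of let-7 microRNAs at the DROSHA and DICER1 steps, was singled out after its values were seen. It had 0.0644 FPKM with DMSO and 15.2 with DAC in siLuc cells, and 0.0424 and 12.0 in siStau1 cells, so both DAC groups were far above both DMSO groups. In the authors' deposited table it was called in neither siRNA arm, with q-values of 0.0912 and 0.600. Among the other partners of the microRNA pathway, AGO2, the Argonaute protein that cuts targets, had 21.2 FPKM with DMSO and 37.3 with DAC in siLuc cells, and 14.5 and 27.3 in siStau1 cells, and was also named after its values were seen. It was not called in any of the 4 comparisons.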
